A study of Mus musculus with 6 samples.

Results

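The 5 genes described here encode membrane-bound mucins: Muc1, Muc3, Muc4, Muc13 and Muc20. They were chosen by gene symbol, and all 5 were among the 18477 genes of the deposited colon table. Expression was measured by RNA sequencing of whole colon, with no sorting of cells, in a DSS group (n = 3 libraries) and a DSS+BV group (n = 3 libraries). The mice were male C57BL/6 animals aged 6 to 8 weeks. Both groups drank 2% (w/v) dextran sulfate sodium (DSS), which damages the lining of the colon, for the last 7 of 14 days. The DSS group received PBS by daily gavage over the 14 days, and the DSS+BV group received the gut bacterium *Bacteroides vulgatus* (BV) instead. All 6 libraries therefore came from DSS-treated mice, and no library from untreated colon was analysed here. The only contrast is DSS+BV against DSS, and it asks how the bacterium changed gene expression in the injured colon.

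Membrane-bound mucins are long glycoproteins that epithelial cells hold on their apical surface. Their extracellular part carries stretches rich in serine, threonine and proline, and the serines and threonines are covered with O-linked sugar chains. In the gut, these proteins make up much of the glycocalyx of the brush border, beneath the gel that goblet cells secrete. Muc13 and Muc3 are the typical membrane mucins of the colonocyte brush border. Muc1 is usually low in the healthy colon, binds signalling proteins through its cytoplasmic tail, and is known to be induced by inflammatory cytokines. Muc4 carries EGF-like domains and can associate with the receptor ErbB2. Muc20 has been described as a partner of the receptor Met.

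The sequences below show the richest stretch of serine, threonine and proline codons in each member, and that of Muc3 is poorer than the others. Each is the run of 30 codons, within 1 exon, that holds the most serine, threonine and proline codons in the longest coding transcript of GENCODE M21 (build GRCm38). Capitals mark those codons, and the line is written 5′ to 3′ on the coding strand.
Muc1, chr3:89230315-89230404, plus strand: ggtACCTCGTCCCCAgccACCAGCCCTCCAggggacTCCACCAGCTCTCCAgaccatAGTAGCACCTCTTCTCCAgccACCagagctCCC
Muc4, chr16:32750208-32750297, plus strand: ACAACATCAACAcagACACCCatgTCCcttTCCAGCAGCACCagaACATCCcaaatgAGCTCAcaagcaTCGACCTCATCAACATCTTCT
Muc13, chr16:33798935-33799024, plus strand: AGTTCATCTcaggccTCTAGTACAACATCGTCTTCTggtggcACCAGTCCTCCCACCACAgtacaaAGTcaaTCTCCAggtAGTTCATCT
Muc20, chr16:32794406-32794495, minus strand: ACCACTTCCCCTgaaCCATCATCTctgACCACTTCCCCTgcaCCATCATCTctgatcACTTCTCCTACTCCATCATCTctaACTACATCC
Muc3, chr5:137143925-137144014, minus strand: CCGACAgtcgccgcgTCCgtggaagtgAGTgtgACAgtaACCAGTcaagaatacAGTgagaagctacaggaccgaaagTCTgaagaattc

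In the Muc1, Muc4, Muc13 and Muc20 windows, 21, 22, 22 and 24 of the 30 codons encoded serine, threonine or proline. The Muc3 window held 9 such codons (30%). Over the whole coding sequence, the share was 44.1% for Muc1 (631 codons), 44.8% for Muc4 (3470 codons), 38.0% for Muc13 (573 codons), 43.5% for Muc20 (688 codons) and 17.5% for Muc3 (378 codons). The GENCODE transcript of Muc3 is a short one. RefSeq extends the gene by 16724 bases, nearly all at its 5′ end, so the Muc3 window shows only what lies in the shorter model.

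By the RefSeq annotation of GRCm38.p6, the members lie on 3 chromosomes. Muc1 (Entrez gene 17829) is at chr3:89229056-89233381 on the plus strand, and Muc3 (Entrez gene 666339) is at chr5:137134924-137166048 on the minus strand. The other 3 are close together on chromosome 16. Muc4 (Entrez gene 140474) spans chr16:32735886-32782391 on the plus strand, Muc20 (Entrez gene 224116) spans chr16:32777419-32797435 on the minus strand, and Muc13 (Entrez gene 17063) spans chr16:33794037-33819929 on the plus strand. The 3′ ends of Muc4 and Muc20 overlap. Their exons share 627 bases on opposite strands, which are 15.6% of the exonic bases of Muc20 and 5.33% of those of Muc4. The sources used here do not say whether counting used the strand, so reads from the overlap cannot be assigned to one gene with certainty.

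The expected counts of the 6 libraries summed to between 15293276 and 17254343. The epithelium list, the cells that make these mucins, had all of its 10 genes tested, with summed levels between 9688 and 15737 CPM (counts per 1000000 counts of the TMM-scaled library total). Squamous markers, which would point to anal tissue, summed to between 1.14 and 4.13 CPM, and Krt5 and Krt4 had no more than 3 counts in any library. In a clustering of all genes, DSS 2 stood with DSS+BV 2 and DSS+BV 3, and DSS+BV 1 stood with DSS 1 and DSS 3. The members' log2 fold changes, shares and non-overlapping ratios are therefore also given without DSS 2 and DSS+BV 1. That removal takes out the libraries most like the other group, so it can widen differences and is not a test of them. The labels do not name the animal behind each library, and p-values measure the spread between these libraries.

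None of the members passed the test for a change. A call needed an adjusted p-value below 0.05 and an absolute log2 fold change over 1 (edgeR's quasi-likelihood test, Benjamini-Hochberg adjustment over 14579 genes). Of the 4 tested members, 0 were called lower and 0 were called higher. Over all tested genes, the same rule called 0.0892% lower (13 genes) and 0% higher (0 genes). At an unadjusted p-value under 0.05 there were 1329 lower and 496 higher genes, none of them a member. Without DSS 2 and DSS+BV 1, 0 members were called either. DESeq2 also called 0 members, against 1.73% of genes lower (280) and 0.279% higher (45). The CPM of the groups overlapped for all 4 members, while 11.3% of tested genes were lower and 6.37% higher in DSS+BV without overlap. In whole tissue, fewer cells of a type and less RNA per cell cannot be told apart, and this holds for every level below.

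**Figure D1:**
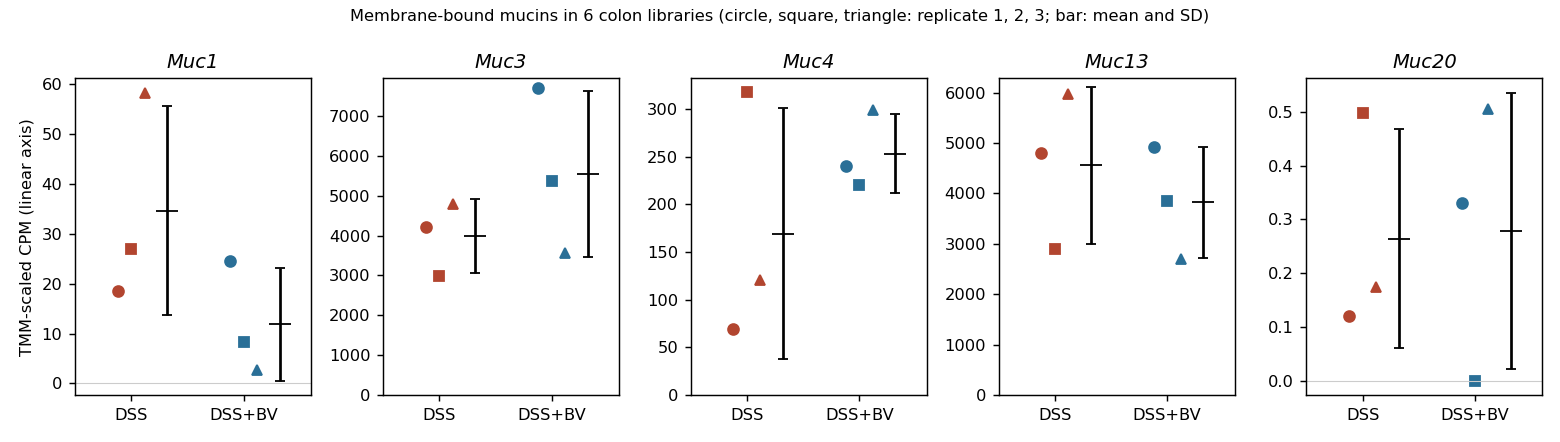
Expression of the 5 membrane-bound mucins in each library. The y axes give CPM on linear axes scaled for each gene, points are libraries, and the black bars are the mean and SD of 3 libraries. The DSS and DSS+BV points overlap for every gene, from a Muc3 level of 7712 CPM in DSS+BV 1 down to 0 for Muc20 in DSS+BV 2.

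Muc3, a brush border mucin, was one of the 2 abundant members. Its CPM was 4220, 2975 and 4796 in DSS 1, 2 and 3, against 7712, 5367 and 3570 in DSS+BV 1, 2 and 3. DSS+BV 1 and DSS+BV 2 were above every DSS library, and DSS+BV 3 lay inside the DSS range. The mean was 3997 ± 931 (SD, n = 3) in the DSS group and 5550 ± 2077 (SD, n = 3) in the DSS+BV group. The log2 fold change was 0.47 with a standard error of 0.342 (95% interval -0.34 to 1.29, adjusted p-value 0.6 by edgeR). DSS+BV 1 carried most of this value. Without it the log2 fold change was 0.17, and without both DSS 2 and DSS+BV 1 it was 0.01.

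Muc13, the other abundant brush border mucin, was close to Muc3 in counts. Its CPM was 4803, 2887 and 5972 in the DSS group, and 4913, 3855 and 2705 in the DSS+BV group. The highest value was in DSS 3 and the lowest in DSS+BV 3, but DSS 2 was nearly as low as the latter. Means were 4554 ± 1558 (SD, n = 3) in DSS against 3825 ± 1104 (SD, n = 3) in DSS+BV. The log2 fold change was -0.25 with a standard error of 0.348 (95% interval -1.08 to 0.58, adjusted p-value 0.789 by edgeR). It lay between -0.48 without DSS 2 and -0.01 without DSS 3, and was -0.69 without DSS 2 and DSS+BV 1.

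Muc4, the ErbB2-associated mucin, was far below Muc3 and Muc13 and varied 4.61-fold between the lowest and the highest library. CPM was 68.92, 317.9 and 120.7 in DSS 1, 2 and 3, against 240.2, 220 and 299 in DSS+BV 1, 2 and 3. Every DSS+BV library was above DSS 1 and DSS 3, and DSS 2 was above them all. The group means were 169 ± 131 (SD, n = 3) and 253 ± 41 (SD, n = 3). Muc4 had a log2 fold change of 0.58 with a standard error of 0.525 (95% interval -0.67 to 1.84, adjusted p-value 0.671 by edgeR). Leaving out DSS 2 gave 1.42 (adjusted p-value 0.165), leaving out DSS 1 gave 0.21, and leaving out both DSS 2 and DSS+BV 1 gave 1.47. With the epithelium level as a covariate, the value was -0.32. That level did not overlap between the groups, so this fit cannot tell it apart from the group.

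Muc1, the inducible signalling mucin, was the most variable of the tested members, with a 21-fold range over the 6 libraries. The median of that range over 14508 genes was 1.81-fold. In the DSS group Muc1 was at 18.5, 26.98 and 58.29 CPM. In the DSS+BV group it was at 24.54, 8.346 and 2.782 CPM. DSS+BV 2 and 3 were below every DSS library, and DSS+BV 1 lay between DSS 1 and DSS 2. The mean was 34.6 ± 21 (SD, n = 3) in DSS against 11.9 ± 11.3 (SD, n = 3) in DSS+BV. The difference did not pass the threshold, at a log2 fold change of -1.54 with a standard error of 0.788 (95% interval -3.42 to 0.34, adjusted p-value 0.472 by edgeR). DESeq2 gave -1.52 (unadjusted p-value 0.0352, adjusted p-value 0.303). The value moved between -2.63 without DSS+BV 1 and -0.94 without DSS 3, and was -2.78 without both DSS 2 and DSS+BV 1.

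Muc20, the Met-associated mucin, was barely detected. It had 2, 8 and 3 counts in the DSS libraries and 5, 0 and 8 counts in the DSS+BV libraries, so 3 of the 6 libraries were at or under 3 counts. The filter on low counts removed it, and no edgeR test was made. DESeq2, which kept it, gave a log2 fold change of 0.10 with a standard error of 1.38. A count of 0 allows up to 3 counts, and a difference in Muc20 was not detectable at this depth. The exons of Muc20 that overlap the far more abundant Muc4 could also hold reads of the latter.

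**Figure D2:**
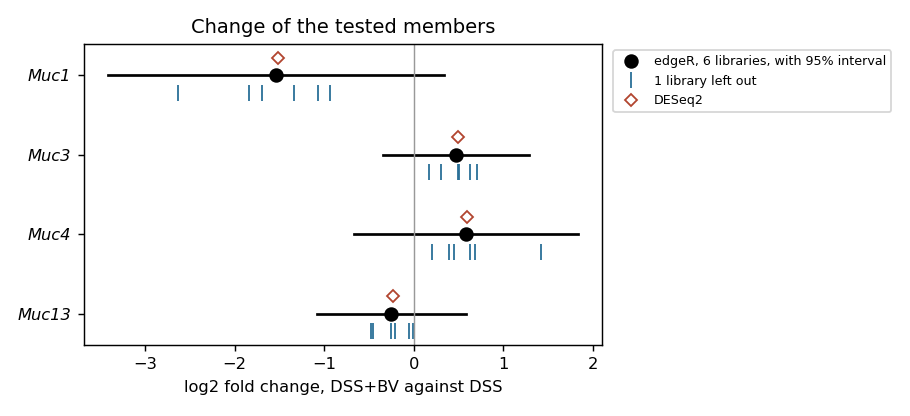
Log2 fold change of the 4 tested members, DSS+BV against DSS. Black points and lines are the edgeR estimates with 95% intervals, blue ticks are estimates with 1 library left out, and open diamonds are DESeq2 estimates. All 4 intervals include 0, and that of Muc1 is the widest, from -3.42 to 0.34.

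Levels of different genes were compared per length, as CPM per kilobase of exon (GENCODE M21). Muc3 was at 2057 ± 479 (SD, n = 3) in the DSS group and 2856 ± 1069 (SD, n = 3) in the DSS+BV group. Muc13 was at 1499 ± 513 and 1259 ± 364 CPM per kilobase (SD, n = 3). The Muc3 value rests on the 1943 exonic bases of the short model and would be lower with a longer one, so the order of Muc3 and Muc13 depends on the annotation. Muc1 and Muc4 were next. Muc1 was at 14.7 ± 8.93 CPM per kilobase in DSS against 5.07 ± 4.82 in DSS+BV, and Muc4 was at 14.4 ± 11.2 and 21.5 ± 3.49 (SD, n = 3). In the DSS group these neighbours did not differ beyond their spread. In the DSS+BV group, the lowest Muc4 library was at 18.7 and the highest Muc1 library at 10.5 CPM per kilobase. Muc20 stayed between 0 and 0.126 CPM per kilobase.

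The 5 members together took 0.946%, 0.639% and 1.09% of the counts of DSS 1, 2 and 3, and 1.28%, 0.916% and 0.641% of those of DSS+BV 1, 2 and 3. The groups overlapped in this total. Muc3 and Muc13 made up between 94.4% and 99% of it, and the balance between them differed between the DSS and DSS+BV libraries. Muc3 was 46.3%, 47.9% and 43.8% of the members' counts in the DSS group, and 59.8%, 56.8% and 54.3% in the DSS+BV group. Muc13 was 52.7%, 46.5% and 54.6% in DSS against 38.1%, 40.8% and 41.1% in DSS+BV. Neither share overlapped between the groups. Since these 2 genes made up nearly all of the total, the 2 shares and the ratio below are 1 observation. The difference between the group means was 10.9 percentage points for Muc3 and -11.2 for Muc13. Without DSS 2 and DSS+BV 1, these differences were 10.5 and -12.7. Muc4 was between 0.756% and 5.12%, and Muc1 was at most 0.532%.

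**Figure D3:**
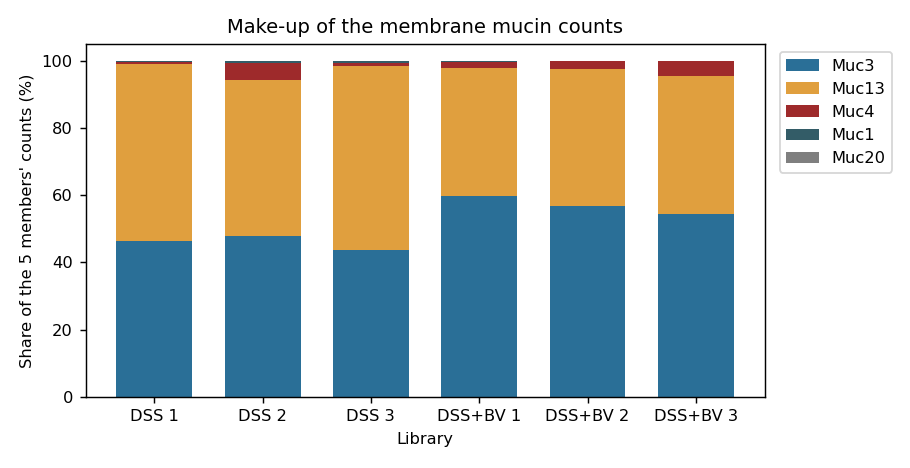
Share of each gene in the summed counts of the 5 membrane-bound mucins. The x axis lists the 6 libraries and the y axis gives percent of the members' counts. The Muc3 part is between 43.8% and 47.9% in DSS and between 54.3% and 59.8% in DSS+BV.

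The ratio of Muc3 to Muc13 within a library does not depend on how libraries were scaled. It was 0.879, 1.03 and 0.803 in DSS 1, 2 and 3, against 1.57, 1.39 and 1.32 in DSS+BV 1, 2 and 3. All DSS+BV libraries were above all DSS libraries, including DSS 2 and DSS+BV 1. The mean log2 ratio was -0.15 (SD 0.182) in DSS against 0.51 (SD 0.128) in DSS+BV, a difference of 0.66. The exact two-sided permutation test gave p = 0.1, the smallest value that 3 against 3 libraries allow, and 0.3 after adjustment over the 6 pairs of tested members. Leaving out 1 library in turn gave differences between 0.58 and 0.76, and leaving out both DSS 2 and DSS+BV 1 gave 0.69. Over the whole table, the ratio to Muc13 was higher in DSS+BV without overlap for 0.94% of the other tested genes (137 of 14578). Seen from Muc3, separation in this direction was common, since the ratio to Muc3 was lower in DSS+BV without overlap for 18.7% of the other tested genes (2728 of 14578). The Muc3 to Muc13 ratio was singled out after the values had been seen.

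Of the other 5 pairs, only Muc1 to Muc3 did not overlap. That ratio was 0.00438, 0.00907 and 0.0122 in DSS against 0.00318, 0.00155 and 0.000779 in DSS+BV. The log2 difference was -2.30 (exact permutation p = 0.1, 0.3 adjusted over the 6 pairs). The difference was between -2.80 and -1.81 with 1 library left out, and -2.69 without both DSS 2 and DSS+BV 1. The same 18.7% of genes is the background for this ratio. The log2 differences of the remaining pairs were -2.73 for Muc1 to Muc4, -1.64 for Muc1 to Muc13, -0.43 for Muc3 to Muc4 and 1.09 for Muc4 to Muc13. In each of them the groups overlapped.

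**Figure D4:**
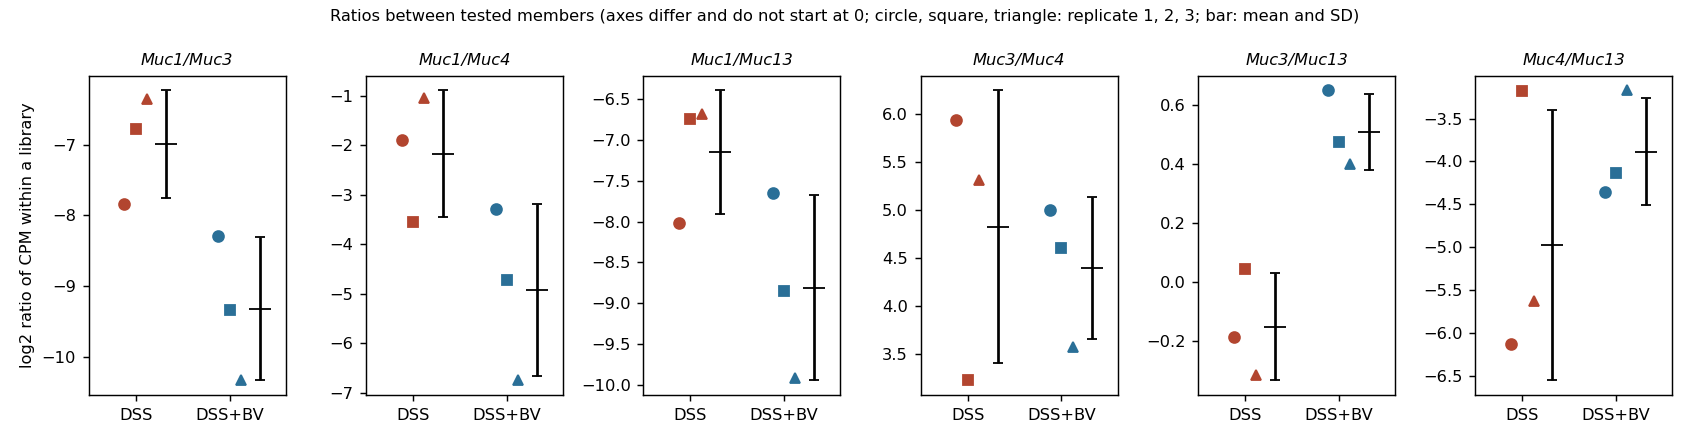
Log2 ratio of CPM within each library for the 6 pairs of tested members. Points are libraries and black bars are the mean and SD of 3 libraries; the axes differ between pairs and do not start at 0. The Muc3 to Muc13 values lie around -0.15 in DSS against 0.51 in DSS+BV with no overlap.

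Levels were also read relative to the epithelium. The mean log2 CPM of the 10 epithelium genes was 9.23, 9.39 and 9.36 in DSS 1, 2 and 3, against 9.59, 9.8 and 9.6 in DSS+BV 1, 2 and 3. It was higher in all 3 DSS+BV libraries, with a difference of 0.34 (exact permutation p = 0.1, the smallest possible). Relative to this level, Muc3 was at 2.81, 2.15 and 2.86 in DSS against 3.33, 2.59 and 2.2 in DSS+BV on the log2 scale, a difference of 0.10. The difference for Muc13 was -0.57, for Muc4 it was 0.52, and for Muc1 it was -2.20. The exact permutation p-values of these 4 differences were between 0.2 and 0.9. Without DSS 2 and DSS+BV 1, the Muc3 difference turned to -0.44 and that of Muc13 was -1.13. The groups overlapped for all 4 members, where 33.2% of tested genes did not overlap in one direction or the other.

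Genes of the distal colon varied between the libraries. The mean log2 CPM of the distal colon genes, among them Hoxb13 and Hoxd13, was 4.54, 1.08 and 3.79 in DSS 1, 2 and 3, against 4.38, 3.24 and -1.53 in DSS+BV 1, 2 and 3. DSS 2 and DSS+BV 3 were the lowest in this mean, but not in every gene of the list. Hoxa13 was highest in DSS 2, at 21.01 CPM, and lowest in DSS+BV 3, at 0.1897 CPM. Hoxd11, picked here because it departs from the score, was lowest in DSS 2, at 0.2487 CPM. In DSS+BV 3 it was at 5.311 CPM, below only DSS 1 at 8.203 CPM. DSS 2 and DSS+BV 3 had the highest Muc4 levels, 317.9 and 299 CPM. Their levels of Muc13, 2887 and 2705 CPM, and of Muc3, 2975 and 3570 CPM, were the lowest. This pattern was picked out after the values had been seen. With the distal score as a covariate, the log2 fold change was -1.59 for Muc1, 0.62 for Muc3, 0.55 for Muc4 and -0.07 for Muc13, and none passed the threshold. The part of colon position in the Muc3, Muc4 and Muc13 levels was not otherwise tested.

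Which genes had the profile most like that of each member was read over the 6 libraries, among 10422 genes with a mean of at least 10 CPM. Likeness was the root mean square difference of centred log2 CPM, where 0 is identical. Muc3 was nearest to Msmo1, at 0.113. Msmo1, a sterol synthesis enzyme, was at 179, 115 and 179 CPM in DSS against 290, 242 and 159 CPM in DSS+BV. Pmvk (0.13), of the mevalonate pathway, and Oxct1 (0.164), of ketone body use, followed. Muc4 was nearest to Agr2 (0.0997), a disulfide isomerase of goblet cells, which was at 310, 1235 and 473 CPM in DSS against 1032, 1022 and 1195 CPM in DSS+BV. Tcea3 (0.107) and Smim24 (0.155) were the next. Muc13 was nearest to Kalrn (0.0936), Arhgap17 (0.0965) and Arid5a (0.0969). Muc1 was nearest to Spink1 (0.302), Cpxm1 (0.371) and Slc15a1 (0.42). The measure grows with a gene's own spread, and the SD of log2 CPM over the 6 libraries was 1.51 for Muc1, 0.86 for Muc4, 0.48 for Muc3 and 0.455 for Muc13, so distances of different members cannot be ranked. Between the members themselves, the distance was 0.355 for Muc3 and Muc13 and 1.84 for Muc1 and Muc4.

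The promoters of the members were read from RefSeq (GRCm38.p6), which listed 6 starts for the 5 genes. Each sequence below is the 250 bases before a start, 5′ to 3′ on the gene's strand. They are shown for the 2 abundant members and for Muc1, the most variable one. The shares of the 2 abundant members did not overlap between the groups, a pattern singled out after the values had been seen. Capitals mark matches to 8 short motifs searched on both strands, which were TATAAA for the TATA box, GGGCGG for the GC box, CACCTG for the E-box, TTCNNNGAA for STAT factors, TGANTCA for AP-1, AGATAA for the GATA family, TTTATG for CDX factors and GGTCAAAGG, a core of the sites of nuclear receptors such as Hnf4a. The motifs were chosen after the values were known.
Muc3, chr5:137166047-137166296, minus strand: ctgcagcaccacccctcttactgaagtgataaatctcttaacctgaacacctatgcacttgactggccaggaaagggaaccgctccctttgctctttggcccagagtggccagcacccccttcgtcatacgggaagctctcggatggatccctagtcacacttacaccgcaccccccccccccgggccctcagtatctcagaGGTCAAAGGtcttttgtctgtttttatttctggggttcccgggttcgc
Muc13, first start, chr16:33793787-33794036, plus strand: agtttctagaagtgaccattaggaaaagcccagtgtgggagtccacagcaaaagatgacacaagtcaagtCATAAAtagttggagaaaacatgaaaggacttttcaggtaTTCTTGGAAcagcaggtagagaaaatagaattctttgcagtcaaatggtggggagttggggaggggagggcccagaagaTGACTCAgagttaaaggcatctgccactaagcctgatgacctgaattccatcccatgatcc
Muc13, second start, chr16:33794239-33794488, plus strand: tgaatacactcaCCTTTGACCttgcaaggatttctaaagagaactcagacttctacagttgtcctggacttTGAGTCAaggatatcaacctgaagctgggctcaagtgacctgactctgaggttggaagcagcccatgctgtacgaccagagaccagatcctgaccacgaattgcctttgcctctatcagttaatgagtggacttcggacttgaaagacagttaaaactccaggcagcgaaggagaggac
Muc1, chr3:89228806-89229055, plus strand: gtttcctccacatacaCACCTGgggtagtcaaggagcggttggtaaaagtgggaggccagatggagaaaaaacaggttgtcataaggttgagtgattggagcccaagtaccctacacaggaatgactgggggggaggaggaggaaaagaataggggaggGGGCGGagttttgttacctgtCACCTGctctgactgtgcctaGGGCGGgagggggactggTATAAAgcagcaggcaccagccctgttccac

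GGTCAAAGG was in the Muc3 promoter, at bases -48 to -40 from the start, and, on the opposite strand, at bases -238 to -230 from the second start of Muc13. It was in 0.31% of 32851 promoters of the same length (102). Muc3 held none of the other motifs, and neither the Muc1, Muc4 or Muc20 promoter nor the first start of Muc13 held this one. The Muc1 promoter had a TATA box at -31 (12.4% of all promoters), GC boxes at -91 and -49 (32.7%) and E-boxes at -234 and -70 (17.2%). The first start of Muc13 had a STAT match at -140 (7.02%), an AP-1 match at -61 (6.75%) and a CDX match at -180 (10.8%). Muc4 had a TATA box at -36 and Muc20 an E-box at -66. The GATA letters, present in 9.99% of promoters, were in none of the 6. These matches describe the letters and do not show that a factor binds.

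Genes that regulate mucin genes had 15 of 17 members tested. None was called, 12 had a positive and 3 a negative log2 fold change, and 4 of the 15 were higher in DSS+BV without overlap, against 6.37% of all tested genes. The median log2 fold change was 0.26, against -0.01 over all 14579 tested genes. The epithelium list had the same median, 0.26, and 4 of its 10 genes were higher in DSS+BV without overlap. Hnf4a, the nuclear receptor of intestinal epithelial identity, was at 513.6, 707.9 and 525.3 CPM in DSS against 803.5, 1019 and 908 CPM in DSS+BV. All 3 DSS+BV libraries were above the DSS libraries, but the log2 fold change of 0.64 had an adjusted p-value of 0.329 (edgeR). Klf4 and Elf3, factors of epithelial differentiation, overlapped between groups, at 0.23 and 0.04. Of the cytokine genes that are known inputs to mucin expression, 6 of 9 were tested. None was called by edgeR and 2 were called lower by DESeq2 (Il6 and Osm, named for that call), against 1.73% of all genes. The median of the 6 was -1.31. The most abundant were Tgfb1, at -0.56, Il1b and Tnf. Il1b was at 23.23, 27.85 and 67.9 CPM in DSS against 14.45, 20.96 and 4.046 CPM in DSS+BV, and Tnf had a log2 fold change of -1.03 (adjusted p-value 0.356 by edgeR). Il4 and Il13 had at most 3 counts in every library.

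No gene of the proteins that act with membrane mucins passed the test. The brush border and PDZ scaffold list, which holds the anchors of the microvillus, had 12 genes tested and 0 called, with 11 positive and 1 negative log2 fold changes and a median of 0.39. Vil1, the actin bundler villin, had the groups apart at 680.4 to 746.5 CPM in DSS against 889.6 to 1075 CPM in DSS+BV (log2 fold change 0.48, adjusted p-value 0.336 by edgeR). Cdhr5 and Cdhr2, the cadherins that link microvilli, had log2 fold changes of 0.43 and 0.3. The tail partner list had 10 of 11 genes tested, 0 called, and a median of -0.08. In it Lgals3, a lectin that binds mucin sugars, was at 806.6, 647.2 and 704.9 CPM in DSS against 1057, 1616 and 1211 CPM in DSS+BV. Its groups did not overlap (log2 fold change 0.85, adjusted p-value 0.28 by edgeR). Vil1 and Lgals3 were each the 1 gene of their list higher without overlap, against 6.37% of all tested genes. The tail partner list also had 1 gene lower without overlap, against 11.3%. That gene was Hgf, at -0.8 (adjusted p-value 0.241 by edgeR), named after its values were seen. Ctnnb1, which encodes beta-catenin, and the receptor gene Erbb3 had values of 0.22 and -0.31 with overlap.

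Of the 6 proteases that can shed mucin ectodomains, 0 were called and 5 had a negative log2 fold change, with a median of -0.29. The list had 3 genes lower in DSS+BV without overlap, against 11.3% of all tested genes. Adam9 was at 174.7, 180.1 and 196.1 CPM in DSS against 134.6, 134.9 and 127.4 CPM in DSS+BV, without overlap (log2 fold change -0.47, adjusted p-value 0.274 by edgeR). Adam10 also had no overlap, but its log2 fold change was only -0.11. Mep1a, a brush border meprin, had a log2 fold change of 0.88 with overlap. The enzymes that build O-linked sugars had 22 genes tested and 0 called, with 14 positive and 8 negative values and a median of 0.43. Their most abundant genes had log2 fold changes of -0.02 for St6galnac6, a sialyltransferase, -0.01 for B3gnt3, which extends core chains, and -0.37 for Fut2, the fucosyltransferase of secretor antigens.

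Other mucins were compared with the members. Of 7 further membrane mucins, 3 were in the table and 2 were tested. Muc3a (Entrez gene 619309) lies beside Muc3 at chr5:137208805-137212545, and its transcripts shared 0 words of 30 bases with those of Muc3. It was at 42.99, 206.8 and 74.31 CPM in DSS against 130, 203.8 and 367.2 CPM in DSS+BV (log2 fold change 1.11, standard error 0.634, adjusted p-value 0.513 by edgeR). DSS 2 was above DSS+BV 1 and 2, so the groups overlapped. Emcn, the endothelial sialomucin, had a log2 fold change of -0.32, and Muc16 had between 0 and 47 counts and was not tested. The gel-forming Muc2 was at 2339, 10171 and 4239 CPM in DSS against 6878, 8265 and 20700 CPM in DSS+BV. Its log2 fold change was 1.10 with a standard error of 0.655 (adjusted p-value 0.534 by edgeR). Muc6 had a value of 1.28 at levels between 0.05823 and 6.069 CPM, while Muc5ac and Muc5b had at most 3 counts in any library. Goblet cell products had 10 genes tested, 0 called, and a median of 0.06, with 5 positive and 5 negative log2 fold changes. The most abundant, the mucus proteins Fcgbp, Clca1 and Zg16, were at -0.07, -0.25 and -0.45. The list had 2 genes higher in DSS+BV without overlap (6.37% of all tested genes), Ang4, an antimicrobial ribonuclease, at 2.47 and Klk1 at 0.99. Ang4 was the 1 gene of the list called higher by DESeq2, against 0.279% of all genes. Ang4 and Klk1 are named after their values were seen.

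**Figure D5:**
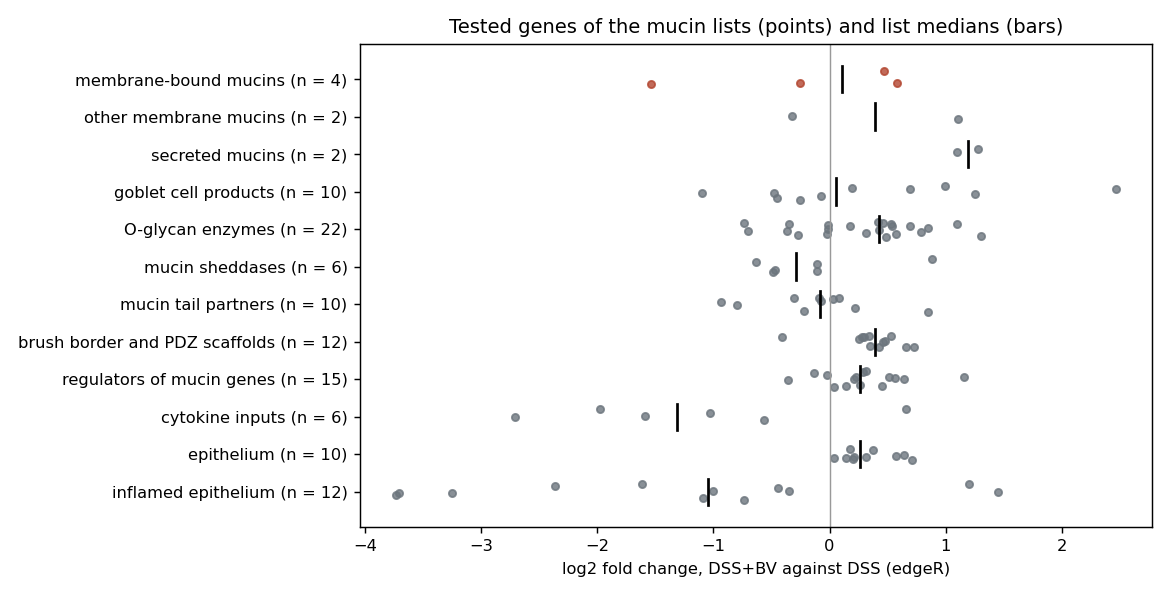
Log2 fold changes of the tested genes in each mucin-related list. The x axis gives log2 fold change, DSS+BV against DSS, points are genes, and black bars are list medians. The 4 membrane-bound mucins spread from -1.54 to 0.58 around a median of 0.11, while the cytokine and inflamed epithelium lists have medians of -1.31 and -1.04.

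Markers of other cell types differed between the libraries. Neutrophil markers had 9 genes tested, of which 6 were called lower, against 0.0892% of all tested genes. Of the 9, 8 were lower in DSS+BV without overlap, against 11.3% of all tested genes. The summed level of the list overlapped, at 217 to 1028 CPM in DSS against 31.2 to 326 CPM in DSS+BV. DESeq2 called 8 of the list lower, against 1.73% of all genes. The 6 edgeR calls became 0 with a replicate block and 0 with the epithelium covariate. They were also 0 without DSS 1, DSS 3, DSS+BV 2 or DSS+BV 3. In each of these runs the edgeR calls over all genes were 0 as well. The neutrophil calls were 1 without DSS 2, 3 without DSS+BV 1 and 7 without both of these. S100a8, a neutrophil alarmin, fell by 4.42 on the log2 scale (standard error 0.256, adjusted p-value 0.0127 by edgeR), and the other called genes were S100a9, Cxcr2, Retnlg, Mmp8 and Mmp9. Ly6g, the most abundant of the list, was not called, at -1.40. It was the largest single part of the summed level, and its groups overlapped. Its CPM was 484.6, 76.1 and 854.5 in DSS against 302.6, 214.6 and 19.09 in DSS+BV.

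The inflamed epithelium list had 12 genes tested, with 10 negative and 2 positive log2 fold changes and a median of -1.04. EdgeR called 0 of them, and DESeq2 called 6 lower, against 1.73% of all genes. The most abundant genes of the list were Ly6a, at -0.74, Saa1, an acute phase protein, at -2.36, and Duox2, an epithelial oxidase, at -1.09 on the log2 scale. The 2 positive genes, named after their values were seen, were Reg3b at 1.45 and Reg3g at 1.2, both with overlap. Duox2 was at 482, 594.7 and 824.5 CPM in DSS against 331.4, 260.9 and 302.5 CPM in DSS+BV (adjusted p-value 0.218 by edgeR). The list of colonocyte genes had 7 positive and 3 negative log2 fold changes and a median of 0.43. Of its 10 genes, edgeR called 0 and DESeq2 called 2 higher (Car1 and Selenbp1), against 0.279% of all genes. Car1, a carbonic anhydrase, was at 824.8, 1041 and 938.7 CPM in DSS against 924.4, 10453 and 8702 CPM in DSS+BV. DSS+BV 1 thus lay inside the DSS range. Cyp2c55 and the keratin gene Krt20 had log2 fold changes of 2.87 and 0.35, and Car4, Aqp8 and Ceacam20 were at -1.10, -1.03 and -0.58. Car4, Aqp8, Ceacam20 and Selenbp1 are named after their values were seen.

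Fibroblast genes summed to 3913 to 4185 CPM in DSS against 1431 to 2080 CPM in DSS+BV. None of the 7 was called by edgeR, and 3 were called lower by DESeq2 (Col1a1, Col3a1 and Dcn), against 1.73% of all genes. Their median was -0.97 on the log2 scale, with the collagen genes Col3a1 and Col1a2 at -1.78 and -0.97 and the proteoglycan gene Dcn at -1.09. Macrophage genes had a median of -0.86, with Lyz2, C1qa and C1qb at -0.48, -0.87 and -0.93, 0 edgeR calls and 1 DESeq2 call (Mrc1, lower). Endothelial genes had a median of -0.63, with Pecam1, Kdr and Cdh5 at -0.62, -0.25 and -0.71, 0 edgeR calls and 1 DESeq2 call (Egfl7, lower). The crypt stem and cycling list had a median of 0.28, with Mki67, Top2a and Pcna at 0.09, 0.10 and 0.26, 0 edgeR calls and 1 DESeq2 call (Lgr5, higher). The genes named for a DESeq2 call were chosen by that call. Over all genes, DESeq2 called 1.73% lower and 0.279% higher, the background for the DESeq2 counts of these lists.

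The remaining lists had 0 genes called by either test. B and plasma cell genes had a median of -0.89, with Jchain, Sdc1 and Cd79a at -0.77, 0.19 and -0.94. The T cell median was -0.01, with Cd4, Lck and Cd8a at 0.01, -0.01 and 0.57. Smooth muscle had a median of -0.17, with Myh11, Acta2 and Tagln at -0.11, -0.32 and -0.44. The distal colon median was -0.30, with Hoxb13, Hoxd13 and Hoxa13 at -0.05, -0.56 and -1.22. Krt13, the squamous gene that was tested, had a log2 fold change of 0.72. In the epithelium list all 10 values were positive, with a median of 0.26 and Krt8, Krt19 and Epcam at 0.64, 0.57 and 0.21. The part of these cell types in the levels of the mucins was not tested, beyond the ratios above and the epithelium covariate. That covariate cannot be told apart from the group.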

How the data were processed

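RNA from colon was sequenced on a DNBSEQ-T7 instrument. The authors quantified genes with RSEM and deposited expected counts per gene, not scaled between libraries. The submitters' processing notes name HISAT2 2.1.0, Bowtie2 2.2.5, RSEM 1.2.8 and build GRCm38.p6. Values that were not whole occurred for 1573 genes and 0 members. Samples were grouped by their titles.

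Expected counts were rounded, filtered with filterByExpr (minimum count 10, minimum total 15), scaled with TMM factors and tested with edgeR 4.0.16 in R 4.3.3 (glmQLFTest). P-values were adjusted by Benjamini-Hochberg over the 14579 genes kept. The common biological coefficient of variation was 32.1%. Log2 CPM used a prior count of 2. The study used DESeq2, which served here as an alternative (version 1.42.0), beside other scalings, filters, covariates, a replicate block and left-out libraries. The fit was checked on simulated data. Ratios and relative levels were compared by exact two-sided permutation tests.

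The members and the 22 other lists were chosen with earlier results of these data known. Named are the members, the called genes and the 3 most abundant tested genes of each list, all further membrane mucins and the 3 nearest profiles per member. Genes named outside this rule are marked as such in the text. Coding sequences came from GENCODE M21, and promoters and positions from RefSeq. Protein sequences were not used here. Figures were drawn with matplotlib 3.10.9.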

Additional observations from a re-analysis of the deposited data

How the results depend on the processing

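Under each alternative run, 0 members were called in either direction. Over all genes, the 13 lower calls became 280 with DESeq2, 0 with a replicate block, 0 with the epithelium level as a covariate and 333 without both DSS 2 and DSS+BV 1. The 0 higher calls became 45 with DESeq2 and 282 without both DSS 2 and DSS+BV 1. Leaving out each library in turn gave 0 to 3 lower and 0 to 4 higher genes. The Muc4 log2 fold change reversed to -0.32 with the epithelium covariate, and the cause was not tested. The epithelium level itself did not overlap between the groups (9.23 to 9.39 in DSS, 9.59 to 9.8 in DSS+BV). A fit with this covariate therefore cannot tell the group and the epithelium level apart.

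The deviations of same-numbered libraries from their group means correlated at 0.267, 0.255 and -0.296. With 3 libraries per group these values constrain one another, so they cannot show whether replicate numbers pair the libraries. With the replicate block, the log2 fold changes were -1.8 for Muc1, 0.44 for Muc3, 0.88 for Muc4 and -0.22 for Muc13.

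With 3 libraries per group, intervals of the members were wide, and changes within them cannot be seen at this size. The Muc3 to Muc13 ratio and the joint removal of DSS 2 and DSS+BV 1 were chosen after seeing the data. Levels relative to epithelium moved to -0.44 for Muc3 and -1.13 for Muc13 in that removal. For Muc3 and Muc13 it took out the lowest DSS value (2.15 and 2.11 on the log2 scale). It also took out their highest DSS+BV value (3.33 and 2.68), so the move follows from which libraries were removed. The removal leaves 2 libraries per group, picked by how all genes clustered, so its counts and fold changes describe those libraries only.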
